A study of Mus musculus with 6 samples.

Results

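CD4+ T cells of the small-intestinal epithelium of old mice were compared with those of young mice, across all genes on 1 microarray for each age. These arrays are 2 of the 6 in the series. Both groups were male C57BL/6 mice, aged 89 weeks (old) and 5 weeks (young) in the labels, although the study's methods state an age a little under this for the old ones. Intraepithelial lymphocytes (IEL) were freed from the epithelium, and CD3+CD4+ cells were sorted from them to a high stated purity. Each group rested on 4 to 6 mice, and whether their cells were pooled is not given. The other arrays hold CD4+ T cells of old and young spleen (SP), given here only beside the IEL values, and 2 further fractions of old IEL, which were not used here. The values are normalised signals deposited by the authors from 1-dye arrays of 23473 probes, scaled so that the median of the listed probes is 25 on each array. A log2 difference is old minus young, over genes with a value on both arrays. A gene was called higher or lower in old IEL CD4+ T cells when it passed 2-fold and its brighter signal was over 100, the thresholds stated for these arrays in the study's methods. Probes of 1 gene were averaged on the log2 scale. With 1 array for each age there is no spread between animals and no test, so every difference below is one between these 2 arrays.

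IEL are T cells that live between the epithelial cells of the gut, close to food antigens and bacteria. CD4+ IEL come from conventional helper T cells that entered the epithelium, and some of them take on CD8 alpha, granzymes and receptors otherwise known from natural killer (NK) cells. Ageing T cells are known for less division, for the loss of naive cells in lymphoid organs and for altered handling of stressed and misfolded proteins. Type I and type II interferons act on T cells through JAK kinases and STAT proteins, which switch on antiviral proteins, immunity-related GTPases and parts of the antigen-processing machinery. The comparison asks how age changes the helper T cells of this site.

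16987 probes were listed on the old IEL array and 17379 on the young one, against a range of 16987 to 19991 over all arrays of the series, and 4378 of the old and 4590 of the young values were over 100. The sort markers were present on both. Cd3d, a chain of the T cell receptor complex, was at 2512 in old and 2549 in young cells. Cd4 was at 434 in old and 475 in young cells (-0.13), and all 12 T cell markers were listed on both arrays. Cd8a, the chain of the CD8 alpha homodimer of the gut epithelium, was at 1545 in old and 128 in young cells (3.59), and its probes agreed in direction (3.38 and 3.80). Its 2 probes were unlike in brightness, and their mean without logs was 8243 in old and 791 in young cells. The level of Cd8a can therefore not be set against that of another gene. Cd8b1, the beta chain that conventional CD8+ T cells add, went the other way, at 232 in old and 647 in young cells (-1.48). Markers of B cells summed to 151 in old and 149 in young cells, those of macrophages and monocytes to 136 in old and 211 in young, and those of enterocytes to 634 in old and 648 in young. Ncr1, the defining receptor of NK cells, was at 2.70 in old and 2.52 in young cells, near the lowest signals listed. Other NK markers not over 100 went both ways, Eomes at 0.99 and Klrb1c at -1.09. NK and innate lymphoid markers summed to 795 in old and 829 in young cells, mostly from Tbx21, which is also the Th1 factor. Of 8 gamma delta T cell markers only Sox13 was on the array, at 77.2 in old and 80.5 in young cells. The part of gamma delta T cells in the differences below was not tested.

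Across genes the old and young IEL arrays were alike, and in the values as deposited more genes were called lower than higher in old cells. Of 13777 genes with a value on both arrays, 4088 had a brighter signal over 100. Of these, 101 (2.47%) were called higher in old cells, 157 (3.84%) lower, and 3830 stayed within 2-fold. The median difference was -0.12, the 5th and 95th percentiles were -0.91 and 0.67, and 62.3% of the genes lay below 0. This split depended on the scaling, with 124 higher and 126 lower after quantile normalization, 124 and 123 at a common 75th percentile, and 126 and 120 after a loess fit, each of which moved the median of all genes to about -0.01. Of the genes named below as lower, Atr, Cxcr3, Dkc1, Gadd45b, Gbp2, Glb1, Hells, Il12rb1, Il27ra, Inpp4b, Pabpc1, Parp9, Ppp1r15a, Psma4, Samhd1, Satb1 and Sh2d1a, each just past 2-fold as deposited, fell within it under at least one of these scalings. After normexp, a correction that models the background around each spot, 80 of 359 named genes changed sign. The value is given beside such a gene if it was called or passed 2-fold the other way. Genes without such a value could still lose most of their difference in at least 1 alternative processing. Camk2n1 went from 3.07 as deposited to 0.06, Prnp from 1.36 to 0.02 and Chek1 from -1.59 to -0.17. Counts of genes lower in old cells, and small negative medians of gene groups, are therefore read beside the median of all genes. Repeated control spots within these arrays had a log2 SD between 0.138 and 0.212, or 0.24 for a difference of the 2 arrays, and 1837 genes lay within it. Where a gene had 2 bright probes (64 genes), the log2 difference of a single probe had an SD of 0.42 within the pair. The calls were spread over the whole range of brightness, with 32 higher and 61 lower among 1408 genes of 100 to 200, and 13 higher and 9 lower among the 406 genes above 2000. Only 21 of the genes called lower were in a list of 30 cell division genes, and 5 of those called higher in a list of NK receptors, which left 136 lower and 96 higher genes outside these lists, some of the 136 also known from replication and mitosis. Counted by probe, 129 of 4819 (2.68%) were higher and 180 (3.74%) lower.

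**Figure D1:**
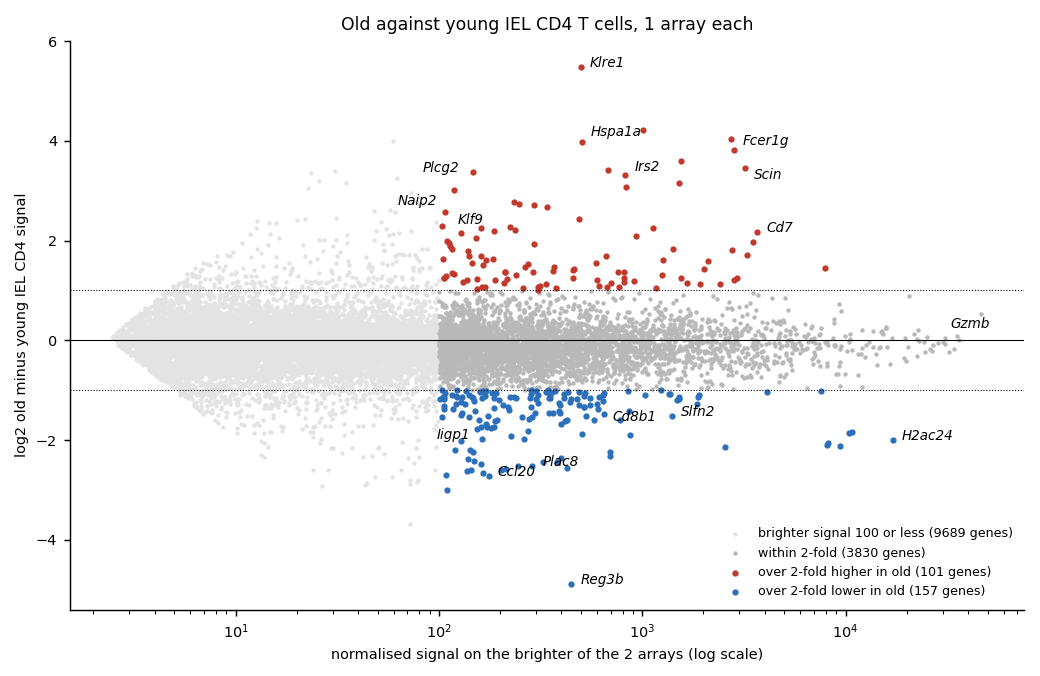
Log2 difference of old minus young IEL CD4+ T cells (vertical axis) against the normalised signal on the brighter of the 2 arrays (horizontal log axis), 1 point per gene. Red points are the 101 genes called higher and blue points the 157 called lower in old cells, and the dotted lines mark 2-fold. Most genes lie near 0 at every brightness, while Reg3b and the H2A histone genes stand out below and Klre1, Hspa1a, Fcer1g and Scin above.

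Among genes level in the values as deposited, Gzmb, which encodes the cytotoxic protease granzyme B, was one of the brightest on both arrays, at 30757 in old and 30002 in young cells (0.04). Ppia, an abundant prolyl isomerase, differed by 0.01, the translation factor gene Eef1a1 by -0.18, and B2m, the light chain of MHC class I, by 0.09. The granzyme B signal as deposited was thus about as high in CD4+ IEL of old mice as in those of young mice, while after normexp Gzmb was at -1.08. Gzma, for granzyme A, was higher in old cells (7948, against 2911 in young, 1.45), and Gzmk, for granzyme K, lower (134, against 302 in young, -1.18). After normexp Gzma turned to -3.15. Cst7, which encodes cystatin F, an inhibitor of the proteases that activate granzymes, was higher, at 2749 in old and 784 in young cells (1.81). Of the 16 cytotoxic granule genes over 100, 2 were called higher and 1 lower, with a median of 0.17. After normexp 9 genes of this list were over 100, of which 1 was higher and 5 lower.

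**Figure D2:**
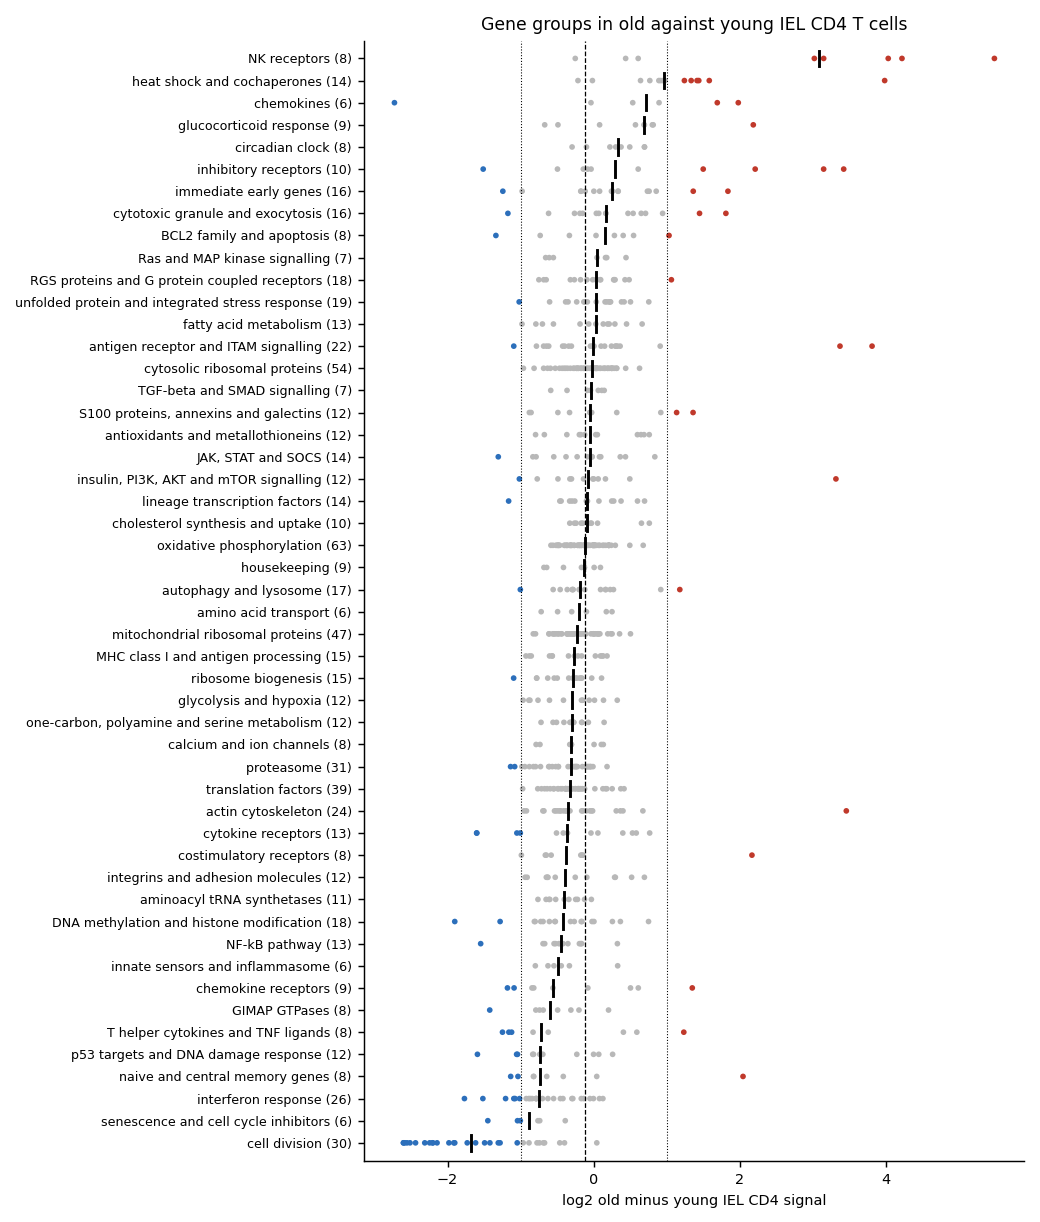
Log2 difference of old minus young IEL CD4+ T cells for the members over 100 of the 50 gene lists with 6 or more such members (number in brackets), ordered by median. Points are genes, red higher and blue lower past 2-fold, black bars are list medians, the dashed line is the median of all genes (-0.12) and the dotted lines mark 2-fold. NK receptors (median 3.09) and heat shock genes (0.96) lie at the top, cell division (-1.68), senescence (-0.88) and interferon response genes (-0.74) at the bottom.

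Outside NK receptors and heat shock genes, the largest differences upwards joined signalling adaptors, an actin-severing protein and surface receptors. Fcer1g, which encodes the Fc receptor gamma chain, an adaptor with an ITAM that pairs with Fc and NK receptors, had a signal of 2825 in old cells against 201 in young cells (3.81). Plcg2, the phospholipase C gamma chain used mainly by B cells and innate cells below ITAM receptors, was at 147 in old and 14.2 in young cells (3.37). Scin, for the calcium-dependent actin-severing protein scinderin, was at 3195 in old and 290.4 in young cells (3.46). Irs2, an adaptor below the insulin and IGF1 receptors, was at 826 in old and 82.8 in young cells (3.32). Most other members of the matching lists were within 2-fold. The antigen receptor and ITAM list had 2 genes higher and 1 lower of 22 (median -0.01), the insulin, PI3K and mTOR list 1 and 1 of 12 (-0.08), and the actin cytoskeleton list 1 and 0 of 24 (-0.35).

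Most chains and kinases of antigen receptor signalling were within 2-fold. Cd3g, the gamma chain of CD3, was at 1595 in old and 849 in young cells (0.91), and Cd3e at 143 in old and 114 in young (0.33), both within 2-fold, though Cd3g passed it narrowly at a common 75th percentile (1.01) and after loess (1.01). Trat1, for a transmembrane adaptor of the T cell receptor, from the list of T cell markers, was higher, at 3276 in old and 1008 in young cells (1.70). The kinase gene Zap70, chosen after its values were seen, was at 477 in old and 821 in young cells (-0.78). Sh2d1a, which encodes SAP, the adaptor that SLAM family receptors use in T cells, was lower, at 892 in old and 1906 in young cells (-1.09). In the PI3K list Inpp4b, a phosphatase of PI(3,4)P2, was lower (81.6 in old, 165 in young, -1.02), while Akt1 (0.00, and -2.82 after normexp) and the regulatory subunit gene Pik3r1 (0.16) were within 2-fold. Dgka, for the diacylglycerol kinase that limits Ras signalling below the T cell receptor, was lower (280.2 in old, 613 in young, -1.13), and Nedd4, a ubiquitin ligase, higher (163 in old, 78.0 in young, 1.06). Nfatc3, a calcium-dependent transcription factor, was lower (155 in old, 347 in young, -1.17).

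Surface receptors held some of the largest changes in the values as deposited. Cd7, an immunoglobulin-family receptor of T and NK cells, was at 3669 in old and 817 in young cells (2.17), the only costimulatory receptor gene of 8 to pass 2-fold (list median -0.38). Cd200r1, the inhibitory receptor for CD200, was at 237 in old and 51.1 in young cells (2.21). Its relatives Cd200r2 (681 in old, 63.5 in young, 3.42) and Cd200r4 (165 in old, 58.4 in young, 1.5), which in mice pair with an activating adaptor, were higher too. These genes are close copies, and shared hybridisation between them was not tested. Over the alternative processings the lowest values were 0.83 for Cd200r1, 0.64 for Cd200r2 and 0.13 for Cd200r4. Cd244a, the SLAM family receptor 2B4, which is also in the NK receptor list, was at 1509 in old and 170.1 in young cells (3.15). Against these, Lilrb4a, an inhibitory receptor with immunoglobulin domains, was lower, at 184 in old and 527 in young cells (-1.51), and its near-identical neighbour Lilr4b followed (-1.35, chosen after its values were seen). Ctla4 (-0.50) and Cd5 (-0.08) stayed within 2-fold. Of 10 inhibitory receptor genes over 100, 4 were higher and 1 lower, with a median of 0.29. After normexp 3 genes of this list were over 100, of which 0 were higher and 2 lower.

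The remaining large differences upwards were of mixed function. Camk2n1, an inhibitor of the calcium and calmodulin-dependent kinase CaMKII, was at 834 in old and 99.7 in young cells (3.07). The neighbouring membrane protein genes Tmem176a (249 in old, 37.5 in young, 2.73) and Tmem176b (489 in old, 91.1 in young, 2.42), known as a pair in RORgt-dependent lymphocytes, were higher together. Naip2 and Naip5 encode sensors of bacterial secretion-system proteins and flagellin that build the NLRC4 inflammasome. Naip2 was at 107 in old and 18.0 in young cells (2.56), and Naip5 at 223 in old and 46.0 in young (2.28), though both belong to a family of close copies. The list of innate sensors as a whole did not share this, with 0 higher and 0 lower of 6 and a median of -0.49, Myd88 being at -0.80 and the pore-forming Gsdmd at -0.54. Others of the 30 largest were Cela1, an elastase (2.72), Mras, a small GTPase of the Ras family (2.68), Prodh, proline dehydrogenase (2.30), Cited4, a transcriptional coactivator (2.25), Tent5a, a cytoplasmic poly(A) polymerase (2.09), Unc5a, a netrin receptor (1.98), and Prkcz, an atypical protein kinase C (1.95). Wls, the carrier that Wnt proteins need for secretion, was at 104 in old and 33.6 in young cells (1.63). S100a4, a calcium-binding protein of memory and motile cells, was at 759 in old and 296 in young cells (1.36), and Lgals3, for galectin 3, at 338 in old and 154 in young (1.14), which normexp turned to -0.20.

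**Figure D3:**
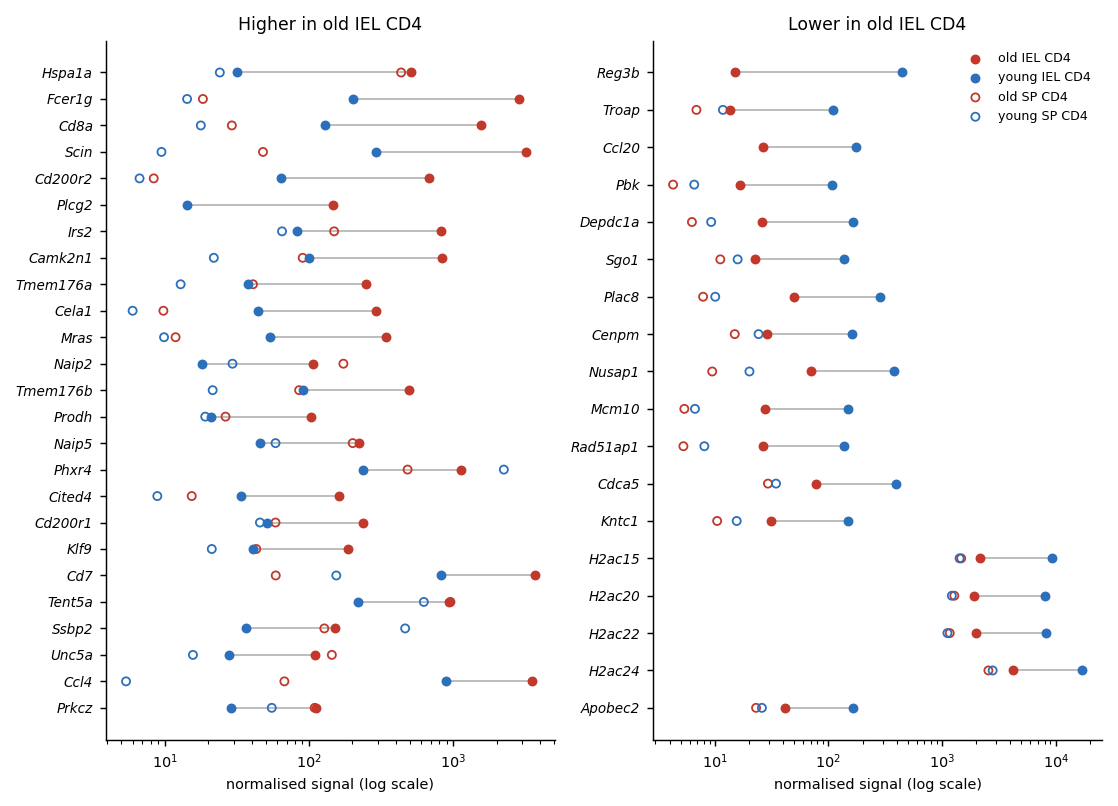
Normalised signals (log axes) of the largest differences between old (filled red) and young (filled blue) IEL CD4+ T cells outside the lists of NK receptors and cell division, 25 genes higher and 18 lower in old cells, with old (open red) and young (open blue) SP CD4+ T cells where listed. Fcer1g, Cd8a, Scin and Cd200r2 lie far above both SP arrays, and the H2A histone genes separate the ages in IEL but not in SP.

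Downwards the largest difference was in Reg3b, an antibacterial lectin of the gut epithelium, at 15.2 in old against 448 in young cells (-4.88). In bulk cells fewer cells of a type and less RNA per cell cannot be told apart, and Reg3b is not a known product of T cells. Of 13 Paneth cell markers 8 were listed on each array, and their summed signal was 84.7 in old and 596 in young cells, of which Reg3b made up 15.2 in old and 448 in young cells. Reg3g was at 6.10 in old and 44.4 in young cells, the Paneth cell lysozyme gene Lyz1 at 17.8 in old and 30.1 in young, and the defensin gene Defa22 at 11 in old and 15.8 in young. The part of epithelial RNA in this difference was not tested. Goblet cell markers summed to 85.4 in old and 81.9 in young cells. Ccl20, the chemokine that draws CCR6-bearing cells, was at 26.5 in old and 176 in young cells (-2.73), and Plac8, a small cysteine-rich protein of myeloid and effector lymphoid cells, at 49.6 in old and 286 in young (-2.53). Ets2, a transcription factor (-1.67), and Cd86, a ligand of CD28 and CTLA-4 (-1.62), both chosen after their values were seen, were also lower.

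Genes of DNA replication and chromosome segregation filled most of the other large differences downwards, and the histone genes that go with replication were among the brightest of them. H2ac24 had a signal of 4232 in old against 17031 in young cells (-2.01). H2ac15 was at 2158 in old and 9351 in young cells (-2.12), H2ac20 at -2.09 and H2ac22 at -2.05, and H2ac10 (-1.85) and H2ac11 (-1.86), chosen after their values were seen, followed. These H2A genes are near-identical in sequence, so their probes cannot be counted as independent genes. On the SP arrays H2ac24 was at 2559 in old and 2789 in young cells. Beyond the list of cell division genes, the spindle genes Troap (-3.01) and Nusap1 (-2.45), the kinase gene Pbk (-2.70), the cohesin protector genes Sgo1 (-2.63) and Cdca5 (-2.36), the replication factor gene Mcm10 (-2.42) and the recombination gene Rad51ap1 (-2.38) were lower. Asf1b, a chaperone that delivers new histones (-1.61), and Hells, a chromatin remodeller (-1.08), both chosen after their values were seen, were lower too. Of the 18 genes of DNA methylation and histone modification, 2 were lower and 0 higher (median -0.42). They were Uhrf1, which guides maintenance methylation at replication forks (232 in old, 869 in young, -1.90), and Ezh2, the methyltransferase of Polycomb complex PRC2 (248 in old, 602 in young, -1.28).

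Genes of the DNA damage response and of senescence were lower or level in old cells. Chek1, the S-phase checkpoint kinase, was at 52.4 in old and 158 in young cells (-1.59), and Atr, the kinase above it, at 92.2 in old and 192 in young (-1.06). Gadd45b, a stress protein that NF-kB signalling induces, was at 1988 in old and 4099.6 in young cells (-1.04). Of 12 genes in this list 3 were lower and 0 higher (median -0.73). Under each of the 3 scalings Chek1 was its 1 lower gene. Cdkn1a, the p21 inhibitor of cyclin-dependent kinases, was at 136 in old and 227 in young cells (-0.74), within 2-fold. The senescence list had 3 of 6 genes lower and 0 higher (-0.88). Besides Gadd45b these were Lmnb1, for lamin B1, which is known to be lost in senescent cells (108 in old, 296 in young, -1.45), and Glb1, for lysosomal beta-galactosidase, which is known to accumulate in them (142 in old, 284 in young, -1.01). Under each of the 3 scalings Lmnb1 alone of this list was lower. Among 8 genes of apoptosis, Casp8, the initiator caspase of death receptors, was lower (204 in old, 516 in young, -1.34) and Bcl2l2, for the survival protein BCL-W, higher (154 in old, 75.3 in young, 1.03), around a median of 0.16.

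The interferon response list was shifted down almost as a whole. Of 26 genes over 100, 6 were lower in old cells and 0 higher, 24 lay below 0 and 22 below the median of all genes, with a list median of -0.74 against -0.12 over all genes. Under quantile normalization 4 of them were lower, and 3 under each of the other scalings. On the SP arrays the same list had 1 lower and 0 higher of 27, and a median of -0.02. Iigp1, an immunity-related GTPase, had a signal of 45.0 in old against 154 in young IEL (-1.77). Slfn2, a Schlafen protein that keeps T cells quiescent, was at 490.4 in old and 1405 in young cells (-1.52), though Schlafen genes are close copies and Slfn8 was level (0.13). Irf9, a transcription factor of the interferon response, was at 85.1 in old and 196 in young cells (-1.21). Gbp2, a guanylate-binding protein that interferon gamma induces, was at 301 in old and 643 in young cells (-1.09). The rest of the called members, chosen after their values were seen, were Samhd1, a dNTP hydrolase (-1.08), and Parp9, which acts in ADP-ribosylation (-1.02). Outside the list, Trim25, a ubiquitin ligase of RIG-I (-1.31), Epsti1 (-1.11), Ifi206 (-1.33) and Ifi209 (-1.18), also chosen after their values were seen, were lower, and the Ifi200 family to which Ifi206 and Ifi209 belong has close copies. Ifng itself was at 9511 in old and 6316 in young cells (0.59), and at -1.41 after normexp.

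The promoters of these genes were read because interferons act through a short shared sequence, the interferon-stimulated response element. The 250 bases before the start of each gene were taken from the RefSeq table of build GRCm38.p6 and searched on both strands for GAAA, any 2 bases and GAAA again. The table held a promoter for 19 of the 26 genes, and 9 of these (47.4%) had the letters, against 3.46% of the 27025 genes with a promoter in the table and 3.77% of the 3238 among them with a signal over 100. Of the called genes, 4 had a promoter in the table and only Gbp2 held the letters. A match is a description of the sequence and not a measured site. Shown 5′ to 3′ on the strand of the gene, with the matches in capitals, are Gbp2 at chr3:142620413-142620662 (plus strand, 1 match that starts 59 bases before the gene), Isg15 at chr4:156200819-156201068 (minus strand, 3 overlapping matches), Bst2 at chr8:71537473-71537722 (minus strand, 2 overlapping matches) and Igtp at chr11:58199306-58199555 (plus strand, 1 match).
Gbp2: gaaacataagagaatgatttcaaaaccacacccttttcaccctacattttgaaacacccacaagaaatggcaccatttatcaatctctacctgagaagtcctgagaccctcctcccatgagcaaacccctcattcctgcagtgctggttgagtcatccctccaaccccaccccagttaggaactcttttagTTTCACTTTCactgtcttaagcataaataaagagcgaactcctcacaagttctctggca
Isg15: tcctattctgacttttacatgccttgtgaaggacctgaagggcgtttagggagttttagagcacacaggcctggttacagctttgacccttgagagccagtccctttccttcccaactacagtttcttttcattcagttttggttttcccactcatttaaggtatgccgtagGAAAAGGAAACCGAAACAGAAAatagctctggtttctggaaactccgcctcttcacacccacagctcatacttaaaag
Bst2: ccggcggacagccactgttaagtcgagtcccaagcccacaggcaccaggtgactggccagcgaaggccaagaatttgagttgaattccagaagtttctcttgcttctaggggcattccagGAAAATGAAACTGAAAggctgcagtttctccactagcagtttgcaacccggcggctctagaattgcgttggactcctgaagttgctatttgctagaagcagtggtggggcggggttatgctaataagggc
Igtp: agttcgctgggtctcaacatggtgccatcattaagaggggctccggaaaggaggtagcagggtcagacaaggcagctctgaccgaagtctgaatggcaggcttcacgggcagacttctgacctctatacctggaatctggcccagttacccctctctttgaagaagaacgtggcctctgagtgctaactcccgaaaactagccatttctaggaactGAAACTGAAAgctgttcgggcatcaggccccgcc
The 4 genes, of which the last 3 were chosen after their values were seen, carry the same letters but differed in size of change. Gbp2 was lower by more than 2-fold (above), and Igtp, an immunity-related GTPase, was at 1329.8 in old and 2464 in young cells (-0.89). Isg15, a ubiquitin-like modifier, was at 579.9 in old and 849 in young cells (-0.55), and Bst2, the tethering protein that holds virus particles at the surface, at 174 in old and 192 in young (-0.14).

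Heat shock genes had the highest list median after NK receptors. Of 14 genes of chaperones and cochaperones over 100, 6 were higher in old cells and 0 lower, with a median of 0.96, and only Hspa8 (-0.02) and Hspa4 lay below 0. The same list was shifted alike on the SP arrays, with 6 higher and 0 lower of 15 and a median of 0.97. Hspa1a, the stress-inducible HSP70, had a signal of 506 in old against 31.9 in young IEL (3.98). The HSP40 genes Dnajb1 (2117 in old, 707 in young, 1.58) and Dnaja1 (459.8 in old, 169.6 in young, 1.44), whose products load clients onto HSP70, were higher with it. Stip1, the adaptor between HSP70 and HSP90, was at 455 in old and 171 in young cells (1.42). Hspa4l (1.33) and Cacybp (1.24), chosen after their values were seen, complete the called members. Under each of the 3 scalings 9 of the 14 genes were higher. After normexp 9 genes of this list were over 100, of which 3 were higher and 1 lower. Hsp90aa1, the inducible HSP90, was at 20554 in old and 11074 in young cells (0.89), and Hspd1, the mitochondrial chaperonin, at 3723 in old and 1971 in young (0.92), both just within 2-fold as deposited. Hspd1 passed 2-fold narrowly in 3 of the alternative processings (at most 1.02). Constitutive HSP70 from Hspa8 was level, at 2479 in old and 2509.6 in young cells. The stress response of the endoplasmic reticulum did not share this shift, with 0 higher and 1 lower of 19 genes (median 0.04). Its chaperone gene Hspa5 was at 8276 in old and 8792 in young cells (-0.09), and Ppp1r15a, the phosphatase subunit that ends the integrated stress response, was lower (419 in old, 850.0 in young, -1.02).

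The heat shock element that HSF1 binds was searched on both strands of the same windows as 3 units that alternate between GAA and TTC, starting with either, with any 2 bases between units, and 139 of the 27025 genes with a promoter (0.514%) held it. Among 12 heat shock genes with a promoter in the table only Hspd1 did, and 0 of the 6 called genes, which says only that these letters are not in these windows. The Hspd1 window, at chr1:55087933-55088182 on the minus strand, is shown with its 2 overlapping matches in capitals.
Hspd1: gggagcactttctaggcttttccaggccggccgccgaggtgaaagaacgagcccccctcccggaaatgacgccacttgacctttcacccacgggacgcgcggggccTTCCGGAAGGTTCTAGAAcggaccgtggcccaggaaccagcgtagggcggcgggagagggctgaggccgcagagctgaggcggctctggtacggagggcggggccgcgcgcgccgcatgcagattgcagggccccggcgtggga

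**Figure D4:**
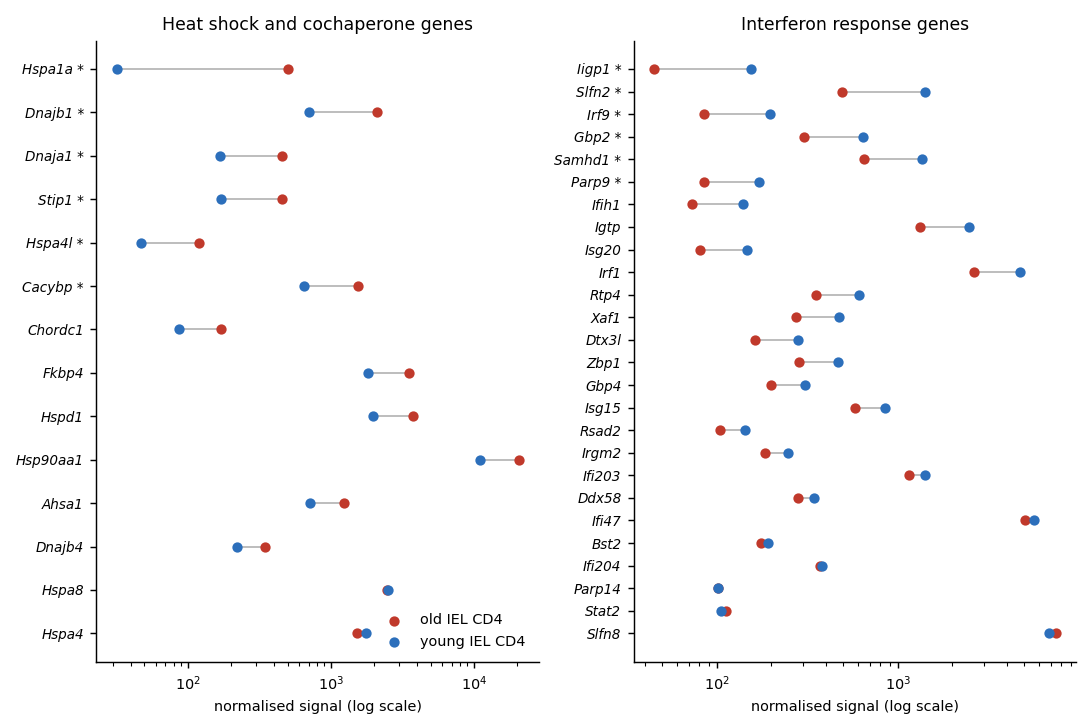
Normalised signals (log axes) of heat shock and cochaperone genes (left) and interferon response genes (right) in old (red) and young (blue) IEL CD4+ T cells, ordered by difference, with stars on genes past 2-fold. Red lies to the right of blue for 12 of 14 heat shock genes, and to its left for 24 of 26 interferon response genes.

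Immediate early genes, which cells switch on within minutes of stimulation, moved in both directions. Klf4, a transcription factor that restrains T cell division, was at 1416 in old and 396 in young cells (1.84), and Nr4a2, an orphan nuclear receptor, at 813 in old and 316 in young (1.36). Dusp5, a nuclear phosphatase of ERK, was lower (54.1 in old, 128 in young, -1.24). The list of 16 had a median of 0.25, with Fos at 0.74, Jun at 0.76, Klf6 at 0.86 and Cd69, the marker of recent activation and residence, at -0.98, all chosen after their values were seen. On the SP arrays 5 of 17 were higher and 0 lower. Among 9 genes of the glucocorticoid response 1 was higher and 0 lower, with a median of 0.69. Klf9, a direct target of the glucocorticoid receptor, was at 187 in old and 41.0 in young cells (2.19), and Tsc22d3, for the mediator GILZ, chosen after its values were seen, at 1472 in old and 837 in young (0.81). In SP 4 of 8 genes of this list were higher and 1 lower (median 1.04). Tsc22d3 went against that median, at 2066 in old and 3622 in young SP cells (-0.81).

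Receptors for cytokines were lower or level in old IEL. Of 13 cytokine receptor genes over 100, 4 were lower in old IEL and 0 higher (median -0.36), against 0 lower and 2 higher of 14 in SP (median 0.45). Il10ra, the ligand-binding chain for interleukin 10, was at 257 in old and 781 in young IEL (-1.60). Il18rap, the second chain for interleukin 18, was at 63.4 in old and 193 in young cells (-1.60). Il27ra (312 in old, 646 in young, -1.05) and Il12rb1 (613 in old, 1231 in young, -1.01), which serve interleukins 27 and 12, were just past 2-fold, and under the 3 scalings the lower genes of this list were 2, Il10ra and Il18rap. Il2rb, shared by interleukins 2 and 15, was at 519.6 in old and 305 in young cells (0.77). Below the receptors, Pim1, a kinase that STAT proteins induce, was lower (196 in old, 486 in young, -1.31), and Socs3, a feedback inhibitor, was at -0.83, in a list with 1 lower and 0 higher of 14 (median -0.05).

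Among 8 T helper cytokines and TNF ligands over 100, 3 were lower in old IEL and 1 higher (median -0.73), whereas in SP 7 of 9 were higher (1.71). Il10, for the regulatory cytokine, was at 129.6 in old and 308 in young IEL (-1.25), Il21, which acts on B cells and CD8+ T cells, at 107 in old and 240.3 in young (-1.16), and Il17f, a Th17 cytokine, at 55.7 in old and 121 in young (-1.12). The signs of Il10 and Il17f turned after normexp, to 0.21 and 0.04. Iltifb, a copy of the interleukin 22 gene chosen after its values were seen, was at 98.8 in old and 288 in young cells (-1.54). Tnfsf8, the ligand of CD30, was higher (153 in old, 65.2 in young, 1.23). The chemokines Ccl3 (665 in old, 206 in young, 1.69) and Ccl4 (3516 in old, 891 in young, 1.98), which draw effector lymphocytes and myeloid cells, were higher in old IEL. Ccl5, the brightest of this list, was at 46343 in old and 31994 in young IEL (0.53). Of 6 chemokine genes over 100 in IEL, 2 were higher and 1 lower (median 0.71), and in SP 4 of 4 were higher (3.72). Ccl4 was dim in SP, at 67.5 in old and 5.40 in young cells (3.64). Of the receptors, Cxcr5, which leads cells to B cell follicles, was higher (116 in old, 45.4 in young, 1.35), while the Th1 receptor Cxcr3 (166 in old, 353 in young, -1.09) and the inflammatory receptor Ccr2 (209.6 in old, 475 in young, -1.18) were lower. After normexp Cxcr3 turned to 0.65, Ccr2 to 0.55 and Il12rb1 to 0.63.

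The NF-kB list lay mostly below 0 in old IEL, with 12 of 13 genes there and a median of -0.45, 1 called lower and 0 higher. Nfkbiz, an atypical I-kappa-B protein that works in Th17 cells, was at 87.5 in old and 256 in young cells (-1.55). Nfkbia, the feedback inhibitor I-kappa-B alpha, was at 3211 in old and 5112 in young cells (-0.67), and at 2.10 after normexp. In SP 4 of 14 genes were higher and 0 lower, with a median of 0.87. Genes of naive and central memory cells gave 1 higher and 2 lower of 8 (-0.73). Satb1, a chromatin organiser of immature and naive T cells (238 in old, 488 in young, -1.04), and Ly6c1 (55.5 in old, 122 in young, -1.14) were lower. Ssbp2, which binds single-stranded DNA and LIM-domain cofactors, was higher (152 in old, 36.8 in young, 2.04). GIMAP GTPases support the survival of naive T cells, and 7 of 8 lay below 0 (median -0.59). Gimap4 was called lower, at 322 in old and 865 in young cells (-1.42), and Gimap6 (-0.74, and 1.32 after normexp) and Gimap7 (-0.69) were within 2-fold. Of the lineage transcription factors 1 of 14 passed 2-fold, Nfatc3 above, and Tbx21, the Th1 factor T-bet, was at 741 in old and 786 in young cells.

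Adhesion genes and the cytoskeleton were mostly within 2-fold. None of 12 integrins and adhesion molecules passed 2-fold (median -0.39), with Itgae, the CD103 chain that holds IEL to E-cadherin, at 483 in old and 299 in young cells (0.69, and -1.46 after normexp), and Itgb2, the beta chain of LFA-1, at 183 in old and 351 in young (-0.94), both chosen after their values were seen. Cd2, the receptor for CD48, was at 514 in old and 967 in young cells (-0.91). In the actin list 19 of 24 genes lay below 0, where 62.3% of all genes lay, and 15 lay below the median of all genes. Scin, its called member, was far above. Coro1a, for the actin regulator coronin 1A, was at 3339.6 in old and 6468 in young cells (-0.95), Arpc2, of the Arp2/3 complex, at 4948 in old and 9370.3 in young (-0.92), and Actb at 749 in old and 1201 in young (-0.68), all chosen after their values were seen. Tmsb4x, which binds monomeric actin, was at 23856 in old and 24365 in young cells (-0.03).

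The machinery of protein synthesis and energy differed little. No gene passed 2-fold among 54 cytosolic ribosomal proteins (median -0.03), 47 mitochondrial ribosomal proteins (-0.23), 39 translation factors (-0.32), 11 aminoacyl tRNA synthetases (-0.40), 63 genes of oxidative phosphorylation (-0.12), 12 of glycolysis and hypoxia (-0.29), 12 of one-carbon and polyamine metabolism (-0.29) and 10 of cholesterol synthesis (-0.10). The tRNA synthetases all lay below 0, with Qars at -0.60 and Gars at -0.22. In ribosome biogenesis 14 of 15 genes lay below 0 (median -0.29), and Dkc1, the pseudouridine synthase dyskerin, was called lower (144 in old, 308 in young, -1.10). Pabpc1, the main poly(A)-binding protein, chosen after its values were seen, was at 3738 in old and 7554 in young cells (-1.02), which normexp turned to 0.56.

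Proteasome genes lay mostly below 0. Of 31 genes 30 lay below 0 and 22 below the median of all genes (list median -0.31), with 2 called lower and 0 higher. Psma5 and Psma4, of the outer rings of the core particle, were the called genes, at 858 in old and 1889 in young cells (-1.14) for Psma5 and 134 in old and 285 in young (-1.08) for Psma4. The subunits of the immunoproteasome, which interferon induces and which cuts peptides for MHC class I, did not move together. Psmb8 was at 3326 in old and 2930.5 in young cells (0.18), and Psmb10 at 238 in old and 439 in young (-0.88), both chosen after their values were seen. None of 15 genes of MHC class I and antigen processing passed 2-fold (median -0.26), and the heavy chain gene H2-K1 was at 0.13. In autophagy and the lysosome Gabarapl1, an ATG8 protein of autophagosome membranes, was higher (908 in old, 401 in young, 1.18), and the list of 17 had a median of -0.19.

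Some genes were listed on one array only, and where the scanner spot of the other array lay near its blank spots the difference is given as a bound against the lowest signal listed there. 619 probes were listed only in old cells, 2 of them over 100, and 1011 only in young cells, 0 of them over 100. Rasgrf1, an exchange factor for Ras, had a signal of 207.5 in old cells, at least 90.3-fold over the lowest signal listed in young cells (2.30). Zkscan6, a zinc finger gene, and Ddhd1, a phospholipase, were at 105.9 and 50 in old cells and unlisted in young cells, but no fold is given for them. Their scanner spots were not dim in young cells, at 213 in old and 319 in young for Zkscan6 and 143 in old and 151 in young for Ddhd1, against a mean of 80.3 in old and 79.2 in young over blank spots. Igsf3 (34.8), Csprs (31.4) and Fam171b (31.4) were the next brightest, and Igsf3 has another probe that was listed on both arrays. Listed only in young cells, Gcg, the glucagon gene of enteroendocrine cells, was at 59.6, at least 23.8-fold over the lowest signal listed in old cells (2.50). Enteroendocrine markers summed to 142 in old and 227 in young cells, and Gcg itself, a member, made up 59.6 of the young sum. The part of enteroendocrine cells in the Gcg value was not tested. The others were genes of mitosis and replication, Tacc3 at 22.9 (at least 9.16-fold), Nuf2 at 22.1 (at least 8.82-fold), Gins1 at 21.6, Bub1 at 21.5 and Shcbp1 at 17.8.

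In the values as deposited, more genes were higher than lower in old SP, whereas more were lower than higher in old IEL, a split that the other scalings of the IEL arrays evened out. In SP 192 of 4487 genes (4.28%) were higher in old cells and 34 (0.758%) lower, with a median of 0.05. Of the 101 genes higher in old IEL, 26 were higher in old SP, 5 lower, 28 within 2-fold, 40 under the signal minimum and 2 without a value on both SP arrays. Of the 157 lower in old IEL, 12 were higher in old SP, 2 lower, 87 within 2-fold, 53 under the minimum and 3 without both values. The genes higher at both sites included Hspa1a, at 434 in old and 24.1 in young SP (4.17), Klf4 (1.80 in SP), Cst7 (2.32), Naip2 (2.55), Naip5 (1.78), Wls (1.85) and Unc5a (3.20). Only Stmn1, a microtubule destabiliser of dividing cells (-2.15 in IEL, which normexp turned to 2.86, and -1.40 in SP), and Ifi206 (-1.33 in IEL, -1.22 in SP) were lower at both. Prnp, the prion protein gene (1.36 in IEL, 2.79 in SP), and Litaf, a lysosomal membrane protein (1.26 in IEL, 2.15 in SP), chosen after their values were seen, were higher at both.

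A further 17 genes passed 2-fold in opposite directions, 5 higher and 12 lower in old IEL, each with 1 array on every side. Cd7 was at 58.8 in old and 154 in young SP (-1.39), while it was higher in old IEL. Ssbp2, lower in old SP with 128 in old and 463 in young cells (-1.86), was higher in old IEL. Cxcr3 had the opposite pattern, at 455 in old and 53.9 in young SP (3.08), and so had Il10, at 125 in old and 19.2 in young (2.70). Gadd45b was at 1062 in old and 315 in young SP (1.76), and Nfkbiz at 117 in old and 40.0 in young (1.55). Many of the large IEL differences were in genes that were dim in SP, such as Fcer1g, at 18.4 in old and 14.3 in young SP, Scin, at 48.0 in old and 9.50 in young, and Cd200r2, at 8.4 in old and 6.70 in young.

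**Figure D5:**
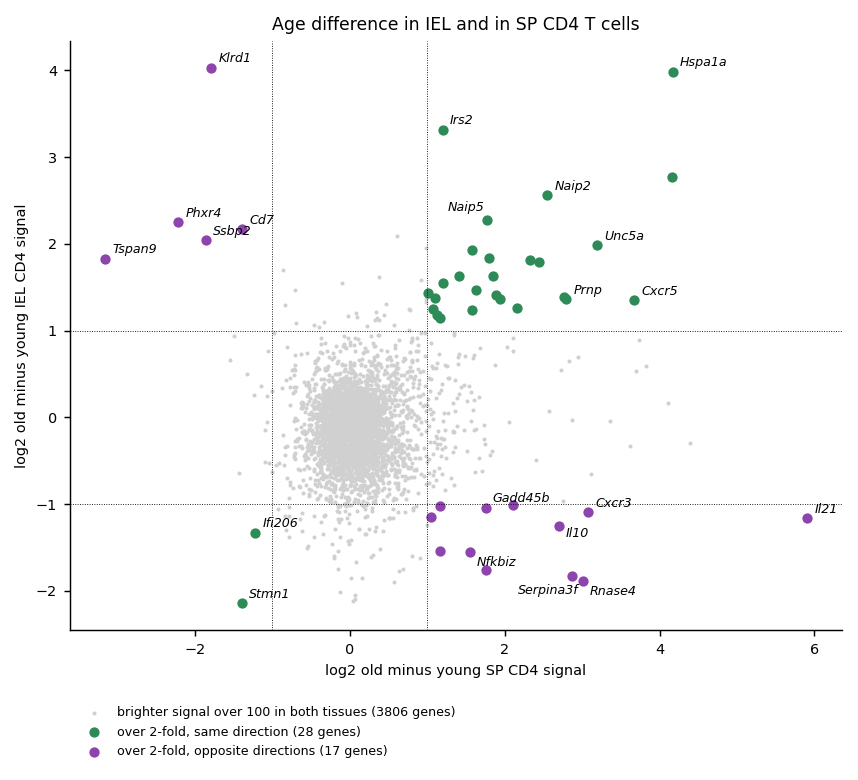
Log2 difference of old minus young in IEL CD4+ T cells (vertical axis) against the same difference in SP CD4+ T cells (horizontal axis), for 3806 genes over 100 at both sites. Green marks 28 genes past 2-fold in the same direction and purple 17 in opposite directions, and dotted lines mark 2-fold. Hspa1a lies at the upper right, Klrd1 at the upper left and Il21 at the far lower right.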

How the data were processed

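RNA of sorted CD3+CD4+ T cells was hybridised with Cy5 to Toray 3D-Gene mouse arrays, 1 array per group. The deposited table gives normalised intensity, linear and with a median of 25 on every array, and the deposited scanner files give the intensity of each spot and its local background. On both IEL arrays the values over 100 were recovered from the scanner intensity as the spot median minus the trimmed mean of the blank spots, divided by 1 factor per array (spot over table value 1.25 for old and 1.34 for young IEL), with a coefficient of variation of at most 0.014%. The rule by which probes were left unlisted is not given in the sources used here. The table was used as deposited. Of 23473 probes 20690 had 1 gene symbol and 2783 none in the platform annotation, and these covered 19321 genes. The number of arrays limits the precision, and no p-value or SD between animals can be had.

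The members and the 58 pathway and 18 marker lists were chosen with earlier results of these data known. The genes named were the 30 largest differences in each direction, up to 4 called and 2 bright uncalled members of each list, the 6 brightest genes on 1 array only, sort markers, genes called in both tissues, and the 6 brightest level genes, with predicted genes passed over. Genes outside this rule are marked as chosen after seeing their values. The alternatives tried were values rebuilt from the scanner files, quantile normalization, a common 75th percentile, loess, normexp (offset 50), 16 added before log2, signal minimums of 0 or 200, 3-fold, unlisted probes filled with the lowest listed signal, and the brightest probe per gene. The steps were tested on simulated data. Tools were Python 3.11.15 with numpy 2.4.6 and pandas 2.3.3, matplotlib 3.10.9, and limma 3.58.1 in R 4.3.3. Promoters came from the RefSeq table of build GRCm38.p6.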

Additional observations from a re-analysis of the deposited data

Results flagged for a closer look

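A total of 17 genes stood out because their age difference passed 2-fold in opposite directions in IEL and in SP CD4+ T cells, with the brighter signal over 100 at both sites. The difference given for each is the log2 old minus young difference in IEL less that in SP. With 1 array per group it was not tested. Alternative processings were run on the IEL arrays only. In IEL, Cxcr3, Il12rb1, Gadd45b and Ppp1r15a fell within 2-fold under at least 1 other scaling. After normexp the IEL differences of Cxcr3 (0.65), Il10 (0.21), Il12rb1 (0.63) and Phxr4 (-0.95) changed sign. The first 5 were higher in old IEL and lower in old SP. Klrd1, for the CD94 subunit of NK receptors, was at 2744 in old and 168 in young IEL, and at 81.4 in old and 281 in young SP (difference 5.82). Tspan9, a tetraspanin, was at 116 in old and 32.8 in young IEL, and at 29.0 in old and 259.6 in young SP (difference 4.99). Its IEL values average 2 probes, while its SP values rest on the 1 probe listed on both SP arrays. Averaged over both probes, young SP was at 33.4, so this difference compares unlike probes. Phxr4 was at 1130.5 in old and 237 in young IEL, and at 482 in old and 2236 in young SP (difference 4.47). Its IEL difference of 2.25 turned to -0.95 after normexp. Ssbp2 was at 152 in old and 36.8 in young IEL, and at 128 in old and 463 in young SP (difference 3.91). Cd7 was at 3669 in old and 817 in young IEL, and at 58.8 in old and 154 in young SP (difference 3.56).

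The other 12 were lower in old IEL and higher in old SP. Il21, Cxcr3, Il10 and Il12rb1 encode a cytokine or cytokine and chemokine receptors of effector T cells, and Nfkbiz, Gadd45b and Ppp1r15a are genes that stress or stimulation induces. Il21, for the cytokine of follicular helper T cells, was at 107 in old and 240.3 in young IEL, and at 204 in old and 3.40 in young SP (difference -7.07). That young SP value lay near the lowest signal listed on its array (2.40), so the size of this difference is uncertain. Rnase4, a secreted ribonuclease, was at 136 in old and 503 in young IEL, and at 114 in old and 14.2 in young SP (difference -4.89). Serpina3f, a serine protease inhibitor, was at 77.6 in old and 275 in young IEL, and at 118 in old and 16.1 in young SP (difference -4.69). Cxcr3 was at 166 in old and 353 in young IEL, and at 455 in old and 53.9 in young SP (difference -4.17). Il10 was at 129.6 in old and 308 in young IEL, and at 125 in old and 19.2 in young SP (difference -3.95). D17H6S56E-5 was at 53.1 in old and 179.9 in young IEL, and at 229 in old and 67.7 in young SP (difference -3.52). Il12rb1 was at 613 in old and 1231 in young IEL, and at 169.7 in old and 39.5 in young SP (difference -3.11). Nfkbiz was at 87.5 in old and 256 in young IEL, and at 117 in old and 40.0 in young SP (difference -3.10). Gadd45b was at 1988 in old and 4099.6 in young IEL, and at 1062 in old and 315 in young SP (difference -2.80). Phf13 was at 35.5 in old and 103 in young IEL, and at 139 in old and 61.9 in young SP (difference -2.71). Senp1, a SUMO protease, was at 58.4 in old and 129 in young IEL, and at 146 in old and 70.9 in young SP (difference -2.19). Ppp1r15a was at 419 in old and 850.0 in young IEL, and at 1121 in old and 498 in young SP (difference -2.19).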

How the results depend on the processing

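No paired analysis was possible because each group has 1 array and no test was run. Between scalings the genes called higher numbered 101 in the table as deposited, 124 after quantile normalization, 124 at a common 75th percentile and 126 after loess, and those called lower 157, 126, 123 and 120. Under these 3 scalings all 101 genes called higher kept their call, and 126, 123 and 120 of the 157 called lower. Normexp gave 142 higher and 471 lower genes (565 lower probes, against 180) and kept 22 and 43 of the original calls. It uses a local background that itself tracked the spot signal (log2 r of 0.984 on the old and 0.961 on the young array), and whether that accounts for its counts was not tested. Of 359 named genes it turned the sign of 80, of which 11 had been called, namely Ccr2 (0.55), Cdc45 (0.42), Cxcr3 (0.65), Gzma (-3.15), Il10 (0.21), Il12rb1 (0.63), Il17f (0.044), Lgals3 (-0.20), Pabpc1 (0.56), Phxr4 (-0.95) and Stmn1 (2.86), while quantile normalization turned 19, the common 75th percentile 22, loess 17, and the rebuilt values and the brightest probe 1 each, none of them called. The minimum of 200 left 228 of these genes. Without a signal minimum 365 genes (459 probes) were higher and 539 genes (641 probes) lower. With a minimum of 200, 96 genes (110 probes) were lower and 84 probes higher. At 3-fold 46 genes (62 probes) were higher and 51 genes (63 probes) lower. With 16 added before log2 there were 93 higher and 124 lower genes. The median of the interferon response list ranged from -0.79 to -0.60 and that of the heat shock list from 0.76 to 1.06 over 10 alternatives, with the same sign in each. Medians of other lists turned sign in at least 1 alternative, for example those of cytotoxic granule genes (lowest -1.08) and inhibitory receptors (-1.37). So did those of apoptosis (-1.61) and immediate early genes (-0.17). Where a gene had 2 bright probes and one of them passed 2-fold (10 genes), the pair had the same sign in 7 and both passed 2-fold in the same direction in 4. Differences of animals, of sorting or of arrays cannot be told apart from age with 1 array on each side, and under a signal of 100 nothing was called.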
